A study of Mus musculus with 24 samples.

Results

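Lepr, the gene of the leptin receptor, was followed in mouse liver through every array probe that carries its name: 6 probes among 56605 on the array, for 1 gene among 37074 names. Lepr was taken up because its transcripts were lower in HFoleic than in reference mice in these same arrays, so that contrast is described here without a test. The arrays (Agilent, 1 colour, Cy3) measured liver RNA of 24 male C57Bl6J mice of the third generation of 2 lineages, 1 array per mouse. The reference group (9 mice) belonged to the control lineage, supplemented with a sunflower oil rich in oleic acid, and ate a low-fat diet. HFoleic mice (8) came from that same control lineage and HFepa mice (7) from the lineage supplemented with n-3 fatty acids, chiefly eicosapentaenoic acid (EPA), and both ate the obesogenic diet, rich in fat and in sucrose (HFD). All mice were killed while fasting. The EPA lineage on the low-fat diet is not analysed here, so that HFepa differs from reference in lineage and in diet at once. How many litters the mice came from is not given in the sources used here. The p-values take each mouse as independent, which littermates may not be, so they may be too small for statements about the lineages.

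The leptin receptor is a class I cytokine receptor of the cell surface. It binds leptin, the hormone that fat cells release in proportion to their stores, and signals through the kinase JAK2 and the transcription factor STAT3. Alternative 3′ ends give a long form, which carries the full signalling tail and prevails in the hypothalamus, and several short forms, which share the extracellular part and the start of the cytoplasmic tail and prevail in tissues such as liver. A soluble form, made by splicing or by shedding of the extracellular part, carries leptin in blood, and liver is a main source of it in the mouse.

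The 6 probes are 60 bases long, have 1 spot each and lie in 5′ to 3′ order on the plus strand of chromosome 4 (build mm9, as the scanner files give them), so that each reads its own piece of the transcripts. The first, A_55_P2621144, is joined from sequence between 101390100 and 101400665, a span of 10566 bases, and names the Ensembl transcript ENSMUST00000145024. The upstream probe, A_55_P2621147 (chr4:101452079-101452138), names ENSMUST00000128948 and no RefSeq transcript. The extracellular-region probe, A_55_P2177910 (chr4:101452666-101452725), names RefSeq NM_010704 (transcript variant 2) and begins 527 bases further on. The cytoplasmic-region probe, A_55_P2177911 (chr4:101464615-101464674), names both NM_010704 and NM_146146 (transcript variant 1, the long form). The variant 3 probe, A_55_P2506350 (chr4:101486122-101486181), names NM_001122899 as its only RefSeq transcript. The last, the long-form probe A_66_P130517 (chr4:101487858-101487917), names NM_146146 as its only RefSeq transcript. The words extracellular and cytoplasmic name the part of the protein that the probe's sequence encodes, which is background knowledge and was not read from the files.

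The sequences of the 4 probes with a measurable signal show which stretch each value stands for. They are printed 5′ to 3′ in lower case throughout, whole for the coding probes and as the first 30 bases for the upstream and the variant 3 probe.
upstream probe, first 30 bases: cttccttggttcttcacagaacataagcag
extracellular-region probe: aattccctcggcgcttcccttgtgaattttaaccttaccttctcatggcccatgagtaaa
cytoplasmic-region probe: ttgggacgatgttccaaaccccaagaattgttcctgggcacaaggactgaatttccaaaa
variant 3 probe, first 30 bases: gttttcgttttgcattttgatgtgtttaca

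Values are log2 median spot signals, quantile normalized between arrays, so a difference of 1 is a doubling of signal. A probe was tested if, in 1 group or more, at least 75% of arrays showed it well above background, and 30003 probes, with 4 of the 6 for Lepr, were. The cytoplasmic-region, the extracellular-region and the variant 3 probe were well above background on all 24 arrays. The upstream probe was so on 9 of 9 reference, 2 of 8 HFoleic and 4 of 7 HFepa arrays, and it passed through the reference group alone. The first probe was well above background on 0 of 9, 0 of 8 and 1 of 7 arrays. The long-form probe was well above background on 2 of 9 reference, 1 of 8 HFoleic and 0 of 7 HFepa arrays. Both were left untested, and their signals give no order of the groups. Signals of different probes were not set against each other as levels, since each probe has its own response.

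Between 50.9% and 60.8% of the probes of an array were well above background, and all 6 hepatocyte markers (such as Alb and Ttr) were so on every array. A few arrays stood apart in markers of other tissues. The mean log2 signal of 4 tested bile duct markers was 9.36 in reference replicate 5 and at most 8.04 elsewhere. That of 3 skeletal muscle markers was 7.97 in reference replicate 3 and at most 6.60 elsewhere. Acta1 and Ckm, which define muscle, passed the filter in no group and were not tested, so their signal on that single array was not read. The mean of 5 adipocyte markers was 9.78 in reference replicate 4 and at most 9.27 elsewhere (Adipoq, likewise, was not tested). That of 3 exocrine pancreas markers was 8.32 in HFepa replicate 7 and at most 7.80 elsewhere. In a piece of liver, fewer cells of a type and less RNA per cell cannot be told apart.

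The variant 3 probe showed the widest gap between the diets. Its log2 signal was 7.76 at the lowest, 9.09 at the median and 10.85 at the highest in the 9 reference mice. In HFoleic mice it was 6.21, 6.94 and 7.42 (7 mice, since the spot of replicate 7 was marked as an outlier and dropped). In the 7 HFepa mice it was 7.03, 8.09 and 9.25. These 7 HFoleic mice lay below every reference mouse, a separation that 0.573% of all tested probes showed in this contrast and that chose the gene. It rests on the dropped spot. With that spot kept, HFoleic replicate 7 had a signal of 9.04, above 4 of the 9 reference mice, while the other 7 HFoleic mice reached 7.42 at most. Of the HFepa mice, 5 lay above the 7 HFoleic mice with a value and 4 lay within the range of the reference mice. The count of 5 rests on the dropped spot too. The highest HFepa signals were 9.25 and 8.42, so only the first exceeds the 9.04 of HFoleic replicate 7. The group means were 9.09 ± 0.94 (SD, n = 9) for reference, 6.83 ± 0.47 (SD, n = 7) for HFoleic and 7.98 ± 0.80 (SD, n = 7) for HFepa mice.

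The cytoplasmic-region probe, which reads the stretch just inside the membrane, had the same order of groups. Its log2 signal was 7.27 at the lowest, 8.37 at the median and 9.82 at the highest in reference mice, 6.13, 6.52 and 7.68 in HFoleic mice and 6.46, 7.60 and 8.39 in HFepa mice. The means were 8.35 ± 0.79 (SD, n = 9), 6.63 ± 0.48 (SD, n = 8) and 7.48 ± 0.76 (SD, n = 7). HFoleic replicate 7, the mouse missing from the variant 3 values, was the highest HFoleic mouse here, and the other 7 lay below every reference mouse.

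The upstream probe was 6.07 at the lowest, 6.38 at the median and 7.50 at the highest in reference mice, 5.24, 5.59 and 6.03 in HFoleic mice and 5.59, 5.94 and 6.34 in HFepa mice. HFoleic and reference mice did not overlap, as for 0.573% of all tested probes, but 6 of the 8 HFoleic signals were not well above background. The probe was tested only because the reference group is high, and this favours such a separation.

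The extracellular-region probe reads a stretch that the membrane-bound forms and the soluble form have in common. Its log2 signal was 9.56 at the lowest, 10.17 at the median and 10.82 at the highest in reference mice, 9.42, 9.91 and 10.27 in HFoleic mice and 9.92, 10.19 and 10.50 in HFepa mice. The means were 10.25 ± 0.46 (SD, n = 9), 9.89 ± 0.32 (SD, n = 8) and 10.17 ± 0.20 (SD, n = 7). The 3 groups overlapped, and all 7 HFepa mice lay within the reference range.

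**Figure D1:**
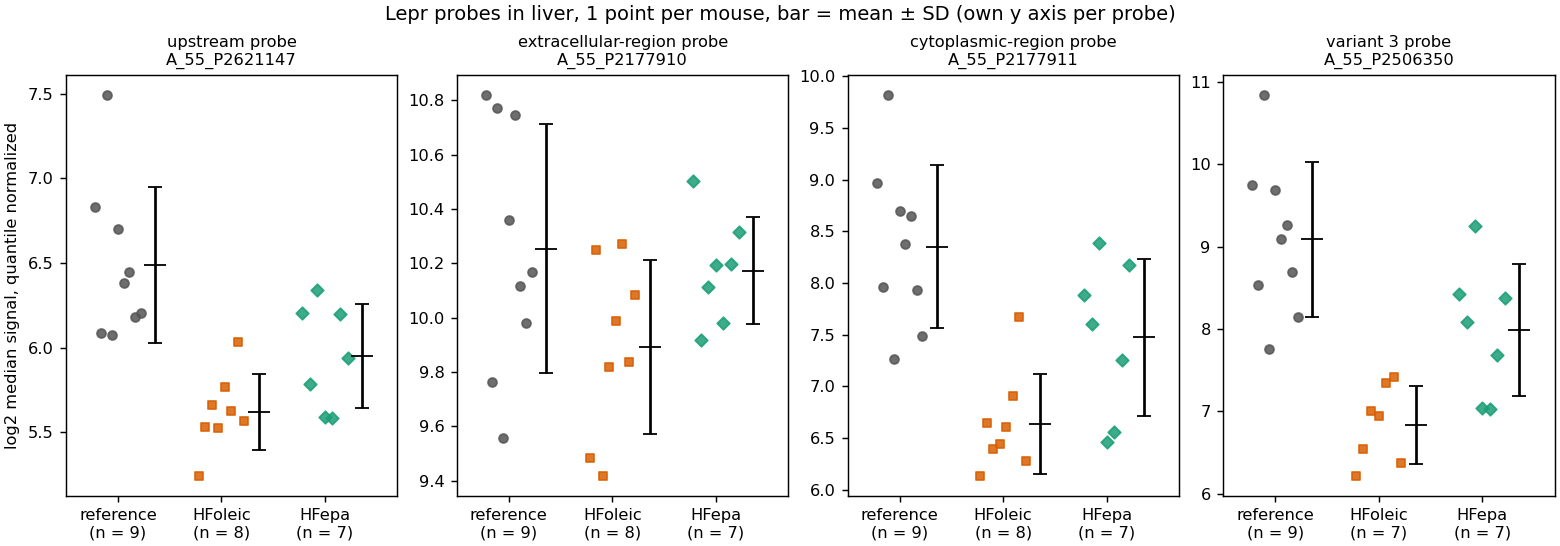
Log2 median signal (vertical axes, quantile normalized, a separate scale for each probe) of the 4 tested Lepr probes in reference, HFoleic and HFepa mice, with 1 point per mouse and the mean ± SD beside each group. The plotted HFoleic mice (7 of 8 for the variant 3 probe, without the outlier spot of replicate 7) lie below every reference mouse for the upstream and variant 3 probes. Of all tested probes, 0.573% separate these groups. The 3 groups overlap for the extracellular-region probe.

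The first comparison, HFoleic against reference, describes what the obesogenic diet went with in the control lineage. The log2 difference in signal was -2.25 (SE 0.37) for the variant 3 probe, a 4.77-fold lower signal. It was -1.72 (SE 0.31), or 3.29-fold lower, for the cytoplasmic-region probe. It was -0.87 (SE 0.16) for the upstream probe, for which no fold is given since 6 of 8 HFoleic signals were not well above background, and which moved to -1.98 with the processed signal. It was -0.36 (SE 0.16), or 1.28-fold lower, for the extracellular-region probe. With the outlier spot of HFoleic replicate 7 kept, the variant 3 probe differed by -1.98 (SE 0.40). Because Lepr was chosen on this contrast, these values are a description and support nothing further.

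Within the 3 slides on which the arrays were run, the HFoleic minus reference difference of the variant 3 probe was -2.58, -2.14 and -1.92 log2 units. For the cytoplasmic-region probe it was -2.05, -1.83 and -1.33. For the extracellular-region probe it was -0.36, -0.54 and -0.13. Each difference was thus negative on each slide. The slide 3 value of the variant 3 probe leaves out the outlier spot of HFoleic replicate 7 (9.04 when kept), which would narrow that difference. Reference replicate 3 was the array highest in the 3 tested muscle markers and in variant 3 signal. Without it the difference of the variant 3 probe was -2.04, and without reference replicate 5 it was -2.18.

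HFepa against reference sets the obesogenic diet and the EPA lineage together against the low-fat control. The reference mice took part in choosing the gene, as a group in which it was high, so the intervals and p-values of this comparison lean toward a difference. No Lepr probe passed limma's test (0 of 4 at an adjusted p under 0.05, against 0.393% of all tested probes). Unadjusted, the variant 3 and cytoplasmic-region probes had a p under 0.05 and the extracellular-region probe had not, while 4040 of all 30003 tested probes had. After adjustment, 0 of 4 were called by the pairwise test that the study's methods name (the methods' t-test). The log2 difference was -1.10 (SE 0.37, 95% interval -1.86 to -0.35) for the variant 3 probe, with an adjusted p of 0.161, and 6 of 7 HFepa mice lay below the reference mean. It was -0.88 (SE 0.32, 95% interval -1.55 to -0.21) for the cytoplasmic-region probe, with an adjusted p of 0.216. For the upstream probe, which was tested only because the reference group is high, it was -0.54 and no p is given. The extracellular-region probe differed by -0.08 (SE 0.17, 95% interval -0.43 to 0.27), with an adjusted p of 0.894. Within the 3 slides its difference was 0.07, -0.45 and 0.15, so that the sign turned between slides, whereas those of the variant 3 probe were -0.70, -1.15 and -1.39.

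HFepa against HFoleic asks whether the lineage altered the level under the same diet. The HFoleic mice took part in choosing the gene, as a group in which it was low, so here too the intervals and p-values lean toward a difference. Again 0 of 4 Lepr probes were called, as were 0 of all 30003 tested probes (unadjusted, 2 of 4 and 2910 of all were under 0.05), and 0 passed by the methods' t-test. The variant 3 probe was 1.15 log2 units higher in HFepa (SE 0.39, 95% interval 0.35 to 1.95), a ratio of 2.22, with an adjusted p of 0.316. All 7 HFepa mice lay above the mean of the 7 HFoleic mice with a value. With the outlier spot of HFoleic replicate 7 kept, the HFoleic mean was 7.11, above HFepa replicates 4 (7.04) and 5 (7.03). The cytoplasmic-region probe was 0.84 higher (SE 0.33, 95% interval 0.15 to 1.53), with an adjusted p of 0.403, and 5 of 7 HFepa mice lay above the HFoleic mean. The upstream probe was 0.33 higher (SE 0.17, 95% interval -0.03 to 0.69), with an adjusted p of 0.549, although 6 of 8 HFoleic and 3 of 7 HFepa signals were not well above background. The extracellular-region probe was 0.28 higher (SE 0.17, 95% interval -0.08 to 0.64), with an adjusted p of 0.617.

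The HFepa minus HFoleic difference of the variant 3 probe varied between slides, at 1.88, 0.99 and 0.52 log2 units. It was 1.51 and 0.88 in the first and second row of the slides. With the outlier spot of HFoleic replicate 7 kept, the difference over all slides was 0.87. That spot lies on slide 3, and the sign there rests on leaving it out. Slide 3 holds HFoleic signals of 6.94, 7.42 and, with the spot kept, 9.04, against 7.04 and 8.37 in HFepa mice. The order of the group means was reference, HFepa, HFoleic for each of the 4 tested probes, but neither neighbouring step that involves HFepa passed the test over all probes.

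**Figure D2:**
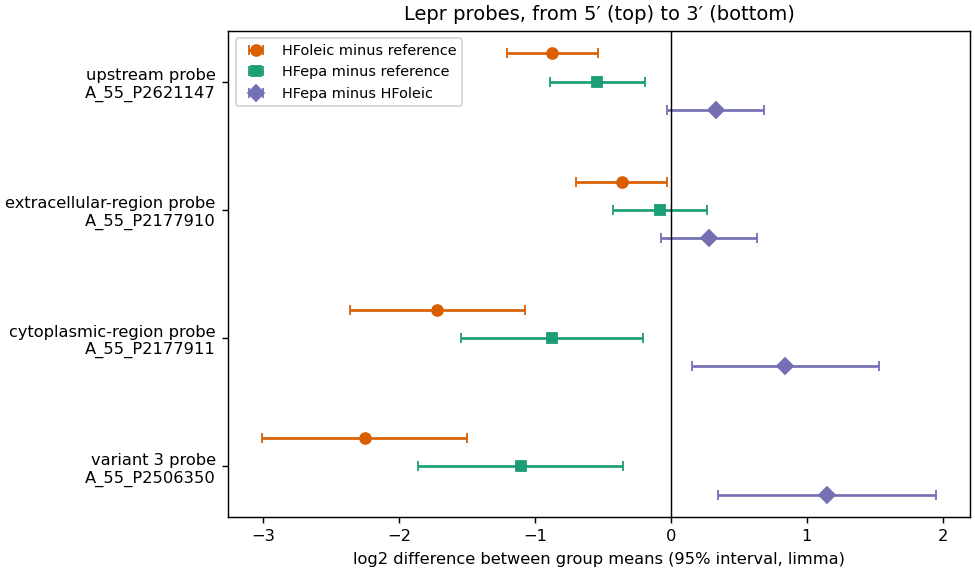
Log2 difference between group means (horizontal axis) with its 95% interval from limma for the 4 tested Lepr probes, listed from 5′ to 3′, in the 3 comparisons. The HFoleic minus reference difference runs from -0.36 for the extracellular-region probe to -2.25 for the variant 3 probe, and HFepa minus reference lies nearer to 0 for each probe.

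The Lepr probes thus differed in how far the group means lay apart. To describe this within each array, the log2 signal of the extracellular-region probe was subtracted from that of each other probe on the same array. The remainder for the variant 3 probe averaged -1.17 ± 0.64 (SD, n = 9) in reference mice. It averaged -3.07 ± 0.51 (SD, n = 7) in HFoleic mice and -2.19 ± 0.77 (SD, n = 7) in HFepa mice. Reference values lay between -2.02 and 0.07 and those of the 7 HFoleic mice between -3.71 and -2.41, while HFepa mice, from -3.15 to -0.86, overlapped both. With its outlier spot kept, HFoleic replicate 7 was at -0.80, above 7 of 9 reference mice. For the cytoplasmic-region probe it was -1.90 ± 0.52 (SD, n = 9), -3.26 ± 0.50 (SD, n = 8) and -2.70 ± 0.72 (SD, n = 7), and 7 of 8 HFoleic mice lay below every reference mouse. For the upstream probe it was -3.76 ± 0.32 (SD, n = 9), -4.27 ± 0.36 (SD, n = 8) and -4.22 ± 0.28 (SD, n = 7), with 3 HFoleic mice below all reference mice. Relative to the extracellular-region probe, the HFoleic minus reference difference was thus -1.90, -1.36 and -0.51 for the variant 3, cytoplasmic-region and upstream probe. Whether the transcripts' stretches changed unequally, or the probes' own responses and the distance to background set these sizes, was not tested.

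**Figure D3:**
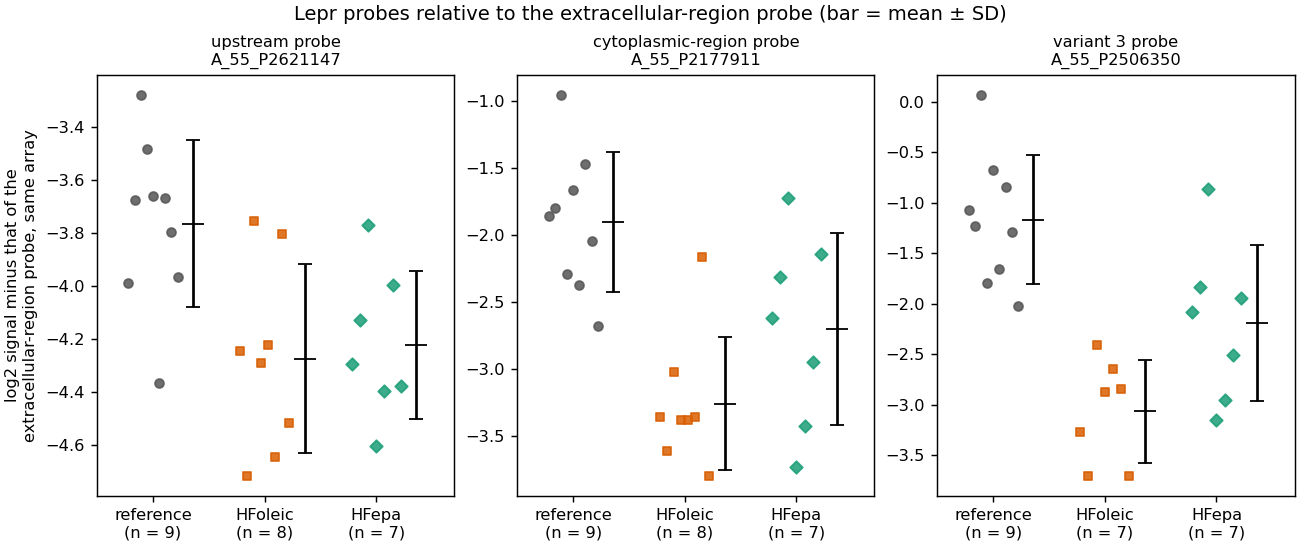
Log2 signal of 3 Lepr probes minus that of the extracellular-region probe on the same array (vertical axes), with 1 point per mouse and the mean ± SD beside each group. For the variant 3 probe, reference mice lie between -2.02 and 0.07 and the 7 HFoleic mice with a value between -3.71 and -2.41.

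The probes also differed in how they varied between mice of the same group. Over 23 arrays, the cytoplasmic-region and variant 3 probes had a Pearson correlation of 0.984, and of 0.954 once group means were subtracted. The upstream probe correlated with them at 0.937 and 0.953 (0.866 and 0.885 within groups), although it lies much closer to the extracellular-region probe. The extracellular-region probe correlated with the other 3 at 0.625 to 0.646 (0.556 to 0.588 within groups, group means subtracted). The points share the arrays and their normalization, and no p is given. Around the group means, the residual SD was 0.35 log2 units for the extracellular-region and upstream probes, 0.69 for the cytoplasmic-region and 0.78 for the variant 3 probe, against a median of 0.18 over all tested probes. Lepr thus varied more between mice of a group than most probes did.

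**Figure D4:**
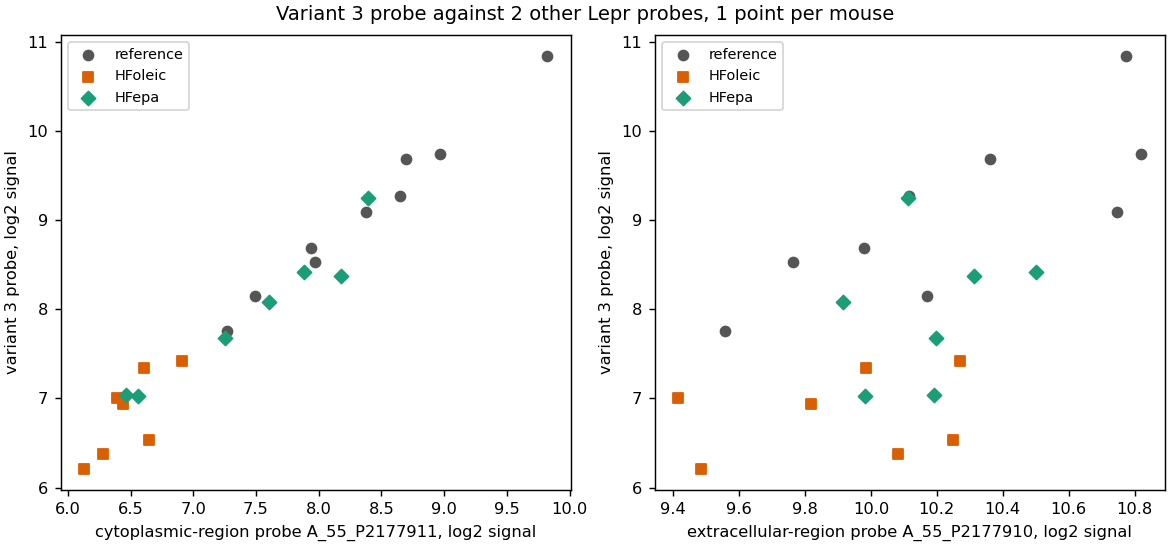
Log2 signal of the variant 3 probe (vertical axes) against that of the cytoplasmic-region probe (left) and the extracellular-region probe (right), with 1 point per mouse and groups by colour and shape. The points follow a line on the left (correlation 0.984) and scatter more on the right (0.625).

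The genes whose signal ran most like a Lepr probe over the arrays differed by probe. For the extracellular-region probe, which has the highest mean signal of the 4, the most alike were Dvl3, a component of Wnt signalling (Pearson 0.909, Spearman 0.939, 0.932 within groups), and Zfp652, a zinc finger protein (0.886, 0.889 and 0.937). Then came Gfra4, a co-receptor of the GDNF family (0.875), and Mthfd1, an enzyme of folate metabolism (0.874), beside 3 long non-coding RNA regions and 3 entries without a current symbol, at 0.869 to 0.884. The least alike were Ptms (-0.840), Aco1 (-0.822), Tmco1 (-0.821), Xk (-0.820) and Vmac (-0.797). Dvl3 differed by -0.14 log2 units between HFoleic and reference, with an adjusted p of 0.663 in limma.

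For the variant 3 probe, looked up after these values were seen, the most alike were Tmed5, a cargo protein of the secretory pathway (Pearson 0.930, Spearman 0.930, 0.805 within groups), and Agpat6, a glycerolipid acyltransferase (0.911, 0.921 and 0.786). They were followed by Shtn1 (0.901), Apoa5, an apolipoprotein made in liver (0.880), and Samm50, a mitochondrial outer membrane protein (0.877). The least alike was Saa4, a serum amyloid A protein of liver (-0.923, -0.911 and -0.823). The 10 most alike genes of the cytoplasmic-region and variant 3 probes had 8 in common, and 5 (Agpat6, Atl2, Samm50, Shtn1 and Tmed5) were among the 10 of the upstream probe as well. None of the 3 lists of 10 shared a gene with that of the extracellular-region probe. In limma Tmed5 differed by -0.71 between HFoleic and reference (adjusted p of 0.00139) and Saa4 by 0.95 (adjusted p of 0.00238), so part of this likeness is the shared difference between groups.

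Most genes around Lepr were not called. Leprot, which encodes a trafficking protein that lowers leptin receptor at the cell surface and shares the start of its gene with Lepr, differed by -0.05 (SE 0.09, adjusted p of 0.825) between HFoleic and reference, by -0.09 (SE 0.10, adjusted p of 0.742) between HFepa and reference and by -0.04 (SE 0.10, adjusted p of 0.931) between HFepa and HFoleic in limma. Its log2 signal was 11.98 in reference replicate 5, well above the other reference mice (at most 11.27), and without that mouse the HFoleic minus reference difference was 0.04. Within 500 kb of the Lepr probes, 11 other probes for 9 genes were tested, and limma called 2 of them in HFoleic against reference, where 7.23% of all tested probes were called. They were a probe of Ak4, an adenylate kinase of mitochondria, which was 0.52 higher (adjusted p of 0.0340), and one of the transcript AK085734, 0.36 lower (adjusted p of 0.0279). None of the 11 was called in either HFepa comparison.

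Next, the partners of the receptor were read, each from its probe with the highest mean signal (8.06% of 20169 such probes were called in HFoleic against reference, 0.392% in HFepa against reference and 0 between the lineages). The 37 genes, in 4 lists, were the ligand and the relatives of Lepr, enzymes of shedding and turnover, signal transduction and inhibitors. All were tested, and 3 of 37 were called in HFoleic against reference, a share close to that background. Their median log2 difference was -0.01, against -0.00072 over all tested probes. In the HFepa comparisons 0 of 37 were called by limma or by the methods' t-test. Limma gave 3 an unadjusted p under 0.05 against reference, where 4040 of all 30003 tested probes had one. Against HFoleic it gave 7, where 2910 of all had one.

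Among ligand and relatives, 0 of 3 were called. Lep, leptin itself, which liver cells hardly make, differed by 0.07 (SE 0.10, adjusted p of 0.775) between HFoleic and reference, and Leprotl1, a paralog of Leprot, by -0.02 (SE 0.10, adjusted p of 0.958). The shedding and turnover genes Adam10, Adam17 and Rnf41 gave 0 calls in the 3 comparisons, and their HFoleic minus reference differences lay between -0.05 and 0.16.

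Of 23 genes of signal transduction, 1 rose and 2 fell in HFoleic against reference, where 8.06% of the highest-signal probes per gene were called. Irs2, the docking protein that links insulin and leptin receptors to phosphoinositide 3-kinase, fell by 1.16 log2 units (SE 0.20, adjusted p of 0.00169, lower in 8 of 8 mice). Its mean log2 signal was 12.21 ± 0.54 (SD, n = 9) for reference, 11.05 ± 0.31 (SD, n = 8) for HFoleic and 11.75 ± 0.44 (SD, n = 7) for HFepa mice. Stat5b, a transcription factor of growth hormone and cytokine signals, rose by 0.34 (SE 0.10, adjusted p of 0.0315 in limma). Only 1 of its 2 tested probes was called, and the differences ran from 0.01 to 0.34. Pdpk1, the kinase that activates AKT, fell by 0.21 (SE 0.07, adjusted p of 0.0470 in limma), with 1 of 2 probes called (-0.21 to -0.15). The Irs2 call held in 35 of 35 alternatives, that of Stat5b in 25 and that of Pdpk1 in 12. Jak2, the kinase bound to the receptor, differed by 0.15 (SE 0.08, adjusted p of 0.323) and Stat3, its main target, by 0.15 (SE 0.13, adjusted p of 0.587). Within groups, the correlation with the variant 3 probe was 0.65 for Pdpk1, 0.52 for Irs2 and -0.49 for Stat5b.

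Of 8 inhibitors of the signal, 0 were called in any comparison by limma. Unadjusted, 2, 0 and 1 were under 0.05 in HFoleic against reference, HFepa against reference and HFepa against HFoleic. Of all 30003 tested probes, 6332, 4040 and 2910 were. Socs3, the feedback inhibitor that STAT3 induces, differed by 0.47 (SE 0.21, adjusted p of 0.187) between HFoleic and reference and by 0.03 (SE 0.21, adjusted p of 0.973) between HFepa and reference. Ptpn1, the phosphatase that acts on JAK2, differed by -0.02 (SE 0.05, adjusted p of 0.870). The widest differences in this list were those of Socs2, an inhibitor of growth hormone signals, which is named after its values were seen. It differed by -1.02 (SE 0.34, adjusted p of 0.0664, lower in 8 of 8 mice) between HFoleic and reference and by 1.28 (SE 0.36, adjusted p of 0.229, higher in 7 of 7 mice) between HFepa and HFoleic in limma.

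Other class I cytokine receptors, the family to which Lepr belongs, were read too. Of 31 listed, 26 were tested and 0 were called in any comparison when read from the probe with the highest mean signal, with a median HFoleic minus reference difference of -0.00058. Unadjusted, limma gave 2 of them a p under 0.05 in that comparison and 4 in each HFepa comparison, where 0 passed by the methods' t-test after adjustment. Of all 30003 tested probes, 6332 had such a p in HFoleic against reference, 4040 in HFepa against reference and 2910 in HFepa against HFoleic. Ghr, the growth hormone receptor, differed by 0.23 (SE 0.10, adjusted p of 0.159), Prlr, the prolactin receptor, by 0.25 (SE 0.17, adjusted p of 0.427), Il6st, the shared signalling chain of interleukin-6 receptors, by -0.04 (SE 0.07, adjusted p of 0.776) and Lifr, the leukemia inhibitory factor receptor, by 0.04 (SE 0.21, adjusted p of 0.947). As with Lepr, probes of a gene differed. Of 4 Ghr probes 2 were called and the differences ran from 0.15 to 0.74, of 3 Prlr probes 1 was called (0.25 to 0.82) and of 3 Lifr probes 1 was called (0.04 to 0.60).

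Because the mice were fasting and liver Lepr is known to respond to food intake, genes of fasting and of feeding were set beside it. Both lists were chosen with earlier results of these data known, so their shares of calls are no independent result. Of 23 fasting genes, 14 fell and 0 rose in HFoleic against reference, with a median difference of -0.62, where 8.06% of the probes with the highest signal of their gene were called in either direction. Among them Asns, asparagine synthetase, fell by 1.67 (SE 0.38, adjusted p of 0.00882), Got1, an aminotransferase of the malate-aspartate shuttle, fell by 1.56 (SE 0.22, adjusted p of 0.000430) and Igfbp1, a binding protein of insulin-like growth factors that insulin represses, fell by 1.34 (SE 0.26, adjusted p of 0.00344). Fgf21, a fasting hormone of liver, fell by 1.07 (SE 0.30, adjusted p of 0.0296 in limma), a call that held in 25 of 35 alternatives. Sds, serine dehydratase, fell by 0.96 (SE 0.21, adjusted p of 0.00633 in limma), and of 2 Sds probes 1 was called (-0.96 to -0.13). Irs2, described above, is also in this list. Against reference, 1 of 23 fell in HFepa, where 0.392% of the highest-signal probes per gene were called. It was Got1, lower by 1.23 (SE 0.23, adjusted p of 0.0245 in limma), a call that held in 26 of 35 alternatives. The median difference of the 23 was -0.29. Between HFepa and HFoleic 0 of 23 were called, with a median of 0.33, while 10 were under 0.05 unadjusted, as were 2910 of all 30003 tested probes. In both HFepa comparisons 0 fasting and 0 feeding genes passed by the methods' t-test.

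Of 12 tested feeding genes, 3 rose and 1 fell in HFoleic against reference, where 8.06% of the highest-signal probes per gene were called. Among these feeding genes Srebf1, the lipogenic transcription factor, rose by 1.02 (SE 0.22, adjusted p of 0.00552 in limma). Mlxipl, the carbohydrate response factor, rose by 0.55 (SE 0.10, adjusted p of 0.00163 in limma). Acacb, an acetyl-CoA carboxylase, fell by 0.78 (SE 0.21, adjusted p of 0.0225 in limma). The probes of both differed: of 3 Mlxipl probes 1 was called (-0.05 to 0.55), and of 3 Acacb probes 1 was called (-0.78 to -0.095). In HFepa against reference Mlxipl alone was called, 0.44 higher (SE 0.10, adjusted p of 0.0458 in limma), where 0.392% of the highest-signal probes per gene were called. This call held in 10 of 35 alternatives, and of 3 Mlxipl probes 1 was called (0.03 to 0.45). Within groups, the correlation with the variant 3 probe was 0.31 for Igfbp1, 0.32 for Fgf21 and -0.40 for Mlxipl. It ran from -0.27 to 0.69 over the tested fasting genes and from -0.49 to 0.19 over the tested feeding genes. The part of feeding state in the Lepr differences was not tested.

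**Figure D5:**
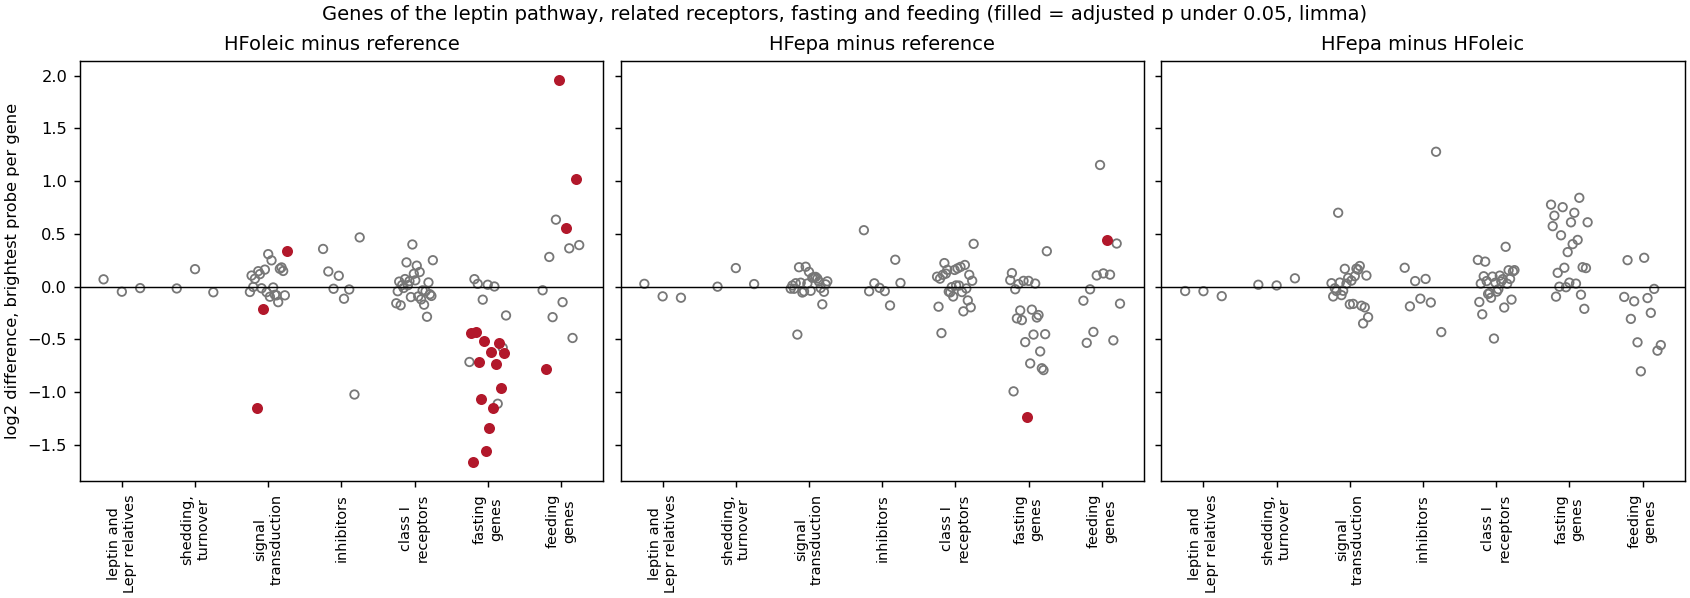
Log2 difference (vertical axis) of each tested gene, read from its probe with the highest mean signal, by list and in the 3 comparisons, with filled points for an adjusted p under 0.05 in limma. In HFoleic against reference, 14 of 23 fasting genes are called lower, against 3 of 37 genes of the leptin pathway and 0 of 26 class I receptors. Of all probes with the highest signal of their gene, 8.06% were called, and the lists were chosen with earlier results of these data known.

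Markers of other liver cells were read in the same way. In HFoleic against reference, limma called Cps1, a hepatocyte enzyme of the urea cycle, 0.89 lower (adjusted p of 0.00166), Lrat, a retinol enzyme of stellate cells, 0.56 higher (adjusted p of 0.00150) and Sox9, a bile duct factor, 0.65 lower (adjusted p of 0.0279). These were 1 of 6, 1 of 8 and 1 of 4 tested markers, where 8.06% of the probes with the highest signal of their gene were called. The median differences of the 3 lists were -0.01, -0.07 and -0.23, and of the stellate markers 3 were higher and 5 lower. The mean log2 signal of the 8 stellate markers was 9.00 to 9.90 in reference, 9.05 to 9.45 in HFoleic and 9.18 to 9.47 in HFepa mice. Markers of sinusoidal endothelium gave 0 of 8 calls and those of Kupffer cells 0 of 6. Their part in the Lepr differences was not tested.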

How the data were processed

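Liver RNA of 24 mice was measured on 1-colour arrays, 1 per mouse. The authors deposited 1 scanner file per array (Agilent Feature Extraction 10.10.1.1 in the submitters' processing notes). Per the file headers it gives each spot's median and mean intensity, not normalized, and a processed intensity, from which background had been removed. A second deposited file holds log2 medians of 32176 probes that the authors filtered and quantile normalized (2550 cells are empty).

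From the scanner files, spots marked as outliers (134 to 627 per array) were left out, log2 median signals of a probe's spots were averaged, probes were kept if at least 75% of arrays in 1 group or more had them well above background (30003 of 56605) and values were quantile normalized. Limma (version 3.58.1, R 4.3.3; lmFit and eBayes on group means, all 24 arrays) gave two-sided p-values, adjusted over all tested probes by Benjamini-Hochberg, with calls under 0.05. The script was tested on simulated data. Exact permutation tests of single Lepr probes were run and are not given, since a group in each took part in choosing the gene. The number of arrays limits the precision.

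Groups and replicate numbers came from the labels, and gene names and coordinates (mm9) from the scanner files. The gene table at hand is of another build and served for names only. The Lepr probes and the gene lists were chosen with earlier results of these data known. Named genes were all Lepr probes, per list up to 6 called genes of each comparison by size of change, Lep, Leprot, Leprotl1, Jak2, Stat3, Socs3, Ptpn1, Ghr, Prlr, Il6st and Lifr, tested genes near Lepr, and the 10 genes most and 5 least alike by Pearson correlation. Markers that were called, Socs2 and the genes of the shedding list, were named after their values were seen. Alternatives were other signals, filters, blocks and tests, the deposited table and each array left out. One called gene of the feeding list is not reported here by name. Figures were drawn with matplotlib.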

Additional observations from a re-analysis of the deposited data

Results flagged for a closer look

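Within each group of 7 to 9 mice, the highest and the lowest value of each Lepr probe, probe difference and named gene were checked for a wide gap to the next value (Dixon's test). Of 96 groups 9 were marked, and chance marks about 1 in 20. No value of the 4 tested Lepr probes was among them, the outlier-marked spot of HFoleic replicate 7 having been left out beforehand. The first Lepr probe, A_55_P2621144, was 6.22 in HFepa replicate 6 against at most 5.39 in the other HFepa mice, and this was the only array on which it was well above background (reference mice reached 5.58). The long-form probe A_66_P130517 was 5.92 in HFoleic replicate 6 against at most 5.32 in the others. Reference replicate 5 stood apart for Leprot (11.98, next 11.27), Sds (14.22, next 13.03), Ghr (12.97, next 13.51) and Lifr (11.32, next 12.30), and it is also the mouse with the highest bile duct marker signal. HFoleic replicate 2 was the highest for Asns (8.79, next 7.36) and Lifr (13.58, next 12.65), and HFoleic replicate 8 for Leprotl1 (8.37, next 7.72). The causes were not tested.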

How the results depend on the processing

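No Lepr probe was called by limma or the methods' t-test in an HFepa comparison under any alternative. The sign of the difference of each tested Lepr probe held in every fit over all slides, but HFepa minus reference of the extracellular-region probe was 0.07, -0.45 and 0.15 within the 3 slides. For the extracellular-region probe, taking the mean of the 4 tested probes instead gave -1.35, -0.65 and 0.70 (HFoleic minus reference, HFepa minus reference, HFepa minus HFoleic). Leaving out 1 array gave -0.45 to -0.29, -0.17 to -0.0098 and 0.21 to 0.33. For the variant 3 probe it gave -2.42 to -2.04, -1.31 to -0.88 and 0.94 to 1.31, and with the processed signal the upstream probe differed by -1.98 between HFoleic and reference.

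The replicate numbers did not pair the mice (median correlation of deviations 0.0035 over 22 same-numbered pairs, -0.015 over 169 others). A replicate block gave -0.44, -0.13 and 0.31 for the extracellular-region probe, left 2, 0 and 0 leptin pathway genes called, and moved the probes called in HFepa against reference from 118 to 245.

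Leptin pathway genes called in HFoleic against reference numbered 5 with normexp and 1 without the filter, and 1 to 5 with 1 array left out (1 without reference replicate 1, 3, 6 or 7 or HFoleic replicate 8, and 5 without HFoleic replicate 5). Probes called in HFepa against reference were 60 with the processed signal, 0 without the filter, 13 in a fit of those groups alone, 0 by the methods' t-test and 0 to 497 with 1 array left out. Between HFepa and HFoleic they were 2 with the strict filter and 0 to 15 with 1 array left out.

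Small differences that were not called changed sign. HFoleic minus reference was 0.017 for Leprotl1 with normexp, and 0.041 for Ptpn1 and 0.011 for Il6st with the processed signal. HFepa minus HFoleic was 0.16 for Lep with outlier spots kept, 0.021 for Leprotl1 with the replicate block and -0.020 for Il6st with the processed signal. With 1 array left out, HFoleic minus reference ran from -0.075 to 0.041 for Leprot, -0.13 to 0.036 for Leprotl1, -0.048 to 0.0018 for Ptpn1 and -0.11 to 0.12 for Lifr. HFepa minus reference ran from -0.028 to 0.092 for Lep, -0.040 to 0.11 for Socs3, -0.045 to 0.013 for Il6st and -0.040 to 0.20 for Lifr. HFepa minus HFoleic ran from -0.093 to 0.023 for Lep, -0.14 to 0.021 for Leprotl1, -0.0055 to 0.093 for Jak2 and -0.022 to 0.22 for Lifr. The causes were not tested.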
